A study of Mus musculus with 30 samples.

Results

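Major urinary proteins (MUPs) are small lipocalins that the mouse liver secretes and the kidney passes into urine. The genes described here are *Mup1*, *Mup2*, *Mup3*, *Mup7*, *Mup10*, *Mup11*, *Mup12*, *Mup17*, *Mup20* and *Mup21*, taken by symbol from the table of liver transcripts. They are 10 of 55450 gene rows, and 49 rows in all carry a Mup symbol. The 39 other Mup rows, 1 of which (*Mup22*) ranks among the most abundant, are given only beside the members.

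Liver poly(A) RNA of male mice on a C57BL/6N background was sequenced in 3 experiments that ask what the loss of the transcription factor CEBPA from hepatocytes does to livers under a diet rich in fat, cholesterol and fructose (HFCFD). HFCFD2W compared *Cebpa* fl/fl mice with *Cebpa* ΔHep mice, which carry albumin-cre, after 2 weeks of diet and with no tamoxifen. HFCFD8W+T10D and HFCFD12W+T10W compared *Cebpa* fl/fl mice with *Cebpa* ΔHep,ERT2 mice, which carry the tamoxifen-inducible albumin-ERT2-cre. HFCFD8W+T10D mice had tamoxifen for the last 10 days and a diet labelled as 8 weeks, where the sources used here do not say whether the 10 days come on top. HFCFD12W+T10W mice had 22 weeks of diet and tamoxifen for the last 10 weeks. Both genotypes of these 2 experiments are labelled with tamoxifen, and every mouse of all 6 groups carried floxed *Cebpa* alleles and ate HFCFD. Each group had 5 mice with 1 library per mouse. The ΔHep mice lacked hepatocyte CEBPA from development onward and were those that survived to weaning, whereas the ERT2 mice lost it as adults.

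MUPs have a barrel-shaped pocket that holds small volatile pheromones and releases them slowly from urine marks. In liver they are among the most abundant secretory transcripts of the adult male, and their transcription is known to follow the pulsed growth hormone of males through the receptor GHR, the kinase JAK2 and the factor STAT5B, with androgens, thyroid hormone and glucocorticoids as further inputs. *Mup20* encodes darcin, the MUP that by itself marks a urine scent as male, while many of the remaining genes of the cluster are recent duplicates of one another.

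All 10 members lie on the minus strand of chromosome 4 (GRCm38, GENCODE M21 annotation), in a cluster of 48 annotated Mup genes at chr4:59956804-62150863, a span of 2.19 Mb that holds 22 protein-coding genes and 26 pseudogenes. From the low coordinate upward the members are *Mup7* at chr4:60066469-60070475, *Mup2* at chr4:60135932-60154289, *Mup1* at chr4:60498012-60501960, *Mup10* at chr4:60578260-60582199, *Mup11* at chr4:60658466-60662411, *Mup12* at chr4:60737383-60741326 and *Mup17* at chr4:61591929-61595871. *Mup20* at chr4:62050234-62054158, *Mup3* at chr4:62083476-62087342 and *Mup21* at chr4:62147932-62150863 stand at the upper end. A 60-base stretch of the coding sequence, read from the GENCODE transcripts across the junction of exons 2 and 3, shows why single members are hard to count. It covers coding bases 212 to 271 of most members, 224 to 283 of *Mup3* and 215 to 274 of *Mup11*, *Mup20* and *Mup21*, and capitals mark bases that differ from the majority of the 10 members.
Mup10: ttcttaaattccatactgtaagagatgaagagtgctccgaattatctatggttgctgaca
Mup1, Mup2, Mup11 and Mup12: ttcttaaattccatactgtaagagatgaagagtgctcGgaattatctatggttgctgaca
Mup7 and Mup17: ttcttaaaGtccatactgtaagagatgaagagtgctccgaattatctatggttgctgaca
Mup20: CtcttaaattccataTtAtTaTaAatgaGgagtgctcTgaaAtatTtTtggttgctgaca
Mup21: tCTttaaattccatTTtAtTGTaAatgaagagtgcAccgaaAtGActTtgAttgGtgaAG
Mup3: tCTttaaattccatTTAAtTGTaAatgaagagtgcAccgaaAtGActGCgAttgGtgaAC
The 10 members had 6 distinct sequences here, and 7 of them differed from the majority by at most 1 base.

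Across the whole coding sequence those 7 members (*Mup1*, *Mup2*, *Mup7*, *Mup10*, *Mup11*, *Mup12* and *Mup17*) were 98.3% to 99.6% identical pair by pair, with 2 to 9 differing bases. *Mup20* was at most 91.3% identical to any other member, and *Mup3* and *Mup21* were 95.4% identical to each other. The share of 50-base words of a member's transcript that no other Mup transcript holds was 83.4% for *Mup3*, 80.7% for *Mup21* and 49.9% for *Mup20*. For the 7 alike members it ranged from 0% for *Mup2* to 21.9% for *Mup17*. The authors counted with RSEM, which divides a read that fits several genes between them by estimated probability, and 86.7% of the nonzero Mup values were not whole numbers (tolerance 0.001), against 11.3% over all genes. Values of *Mup3*, *Mup20* and *Mup21* therefore rest more on reads of their own, whereas the split among the 7 alike members, and between them and rows such as *Mup22* and *Mup14*, is uncertain.

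RefSeq promoter sequence (GRCm38.p6) was at hand for 7 of 10 members, and *Mup1*, *Mup12* and *Mup20* were not matched. In the 250 bases before the annotated start, the letters ATCAATA, a Onecut-type word, were found on either strand in 7 of 7 matched members and in 1.86% of 32851 promoters. The stretch around that word, with the word in capitals, is shown so that the likeness of the members' promoters can be read. The stretches differ by few bases among *Mup2*, *Mup7*, *Mup10*, *Mup11* and *Mup17*, and between *Mup3* and *Mup21*, and by more across these sets. The promoters are thus alike in sequence, so the 7 matches are not independent, and they are a description only.
Mup10, Mup11 and Mup17: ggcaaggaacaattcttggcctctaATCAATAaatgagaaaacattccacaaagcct
Mup2: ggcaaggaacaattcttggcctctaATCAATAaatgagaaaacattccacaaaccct
Mup7: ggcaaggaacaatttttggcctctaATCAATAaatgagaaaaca
Mup21: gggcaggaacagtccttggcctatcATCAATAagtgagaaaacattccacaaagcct
Mup3: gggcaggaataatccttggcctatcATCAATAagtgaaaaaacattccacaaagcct
The stretches lie on the minus strand at chr4:60582278-60582334 (*Mup10*), chr4:60662489-60662545 (*Mup11*), chr4:61595949-61596005 (*Mup17*), chr4:60139978-60140034 (*Mup2*), chr4:60070476-60070519 (*Mup7*, where the window ends), chr4:62150904-62150960 (*Mup21*) and chr4:62087386-62087442 (*Mup3*), and no base of them is in an annotated Mup exon. The TATA-type word TATATAA was found in 5 of 7 and in 3.04% of all promoters. The C/EBP-type word TTNNGCAA (9.56% of all promoters) and the STAT5-type word TTCNNNGAA (7.02%), each searched on both strands, were found in 0 of 7, which says only that these letters are not in these windows.

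Libraries held 7996127 to 10257366 assigned reads (median 8992022). Levels are given as CPM, the counts scaled per library after TMM normalization over all 30 libraries, which takes out depth but not transcript length. *Cebpa* checked the labels. In HFCFD2W it read 187, 193, 171, 149 and 186 CPM in fl/fl mice and 3.43, 4.26, 5.68, 5.37 and 4.97 CPM in ΔHep mice. The HFCFD8W+T10D values were 121, 142, 156, 149 and 150.0 CPM in fl/fl mice and 15.2, 25.1, 21.6, 12.9 and 11.1 CPM in ΔHep,ERT2 mice. In HFCFD12W+T10W they were 126, 130.4, 82.5, 135 and 97.7 CPM against 20.7, 23.8, 22.5, 18.7 and 20.6 CPM. The genotypes overlapped in none of the 3 experiments, and knockout livers kept 2.68%, 11.9% and 18.6% of the fl/fl mean.

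The summed level of the 10 members, which does not depend on how reads were split among them though it does on the split with other Mup rows, was near the fl/fl level in the constitutive knockout and lower in both inducible ones. In HFCFD2W it was 51829, 27036, 29121, 55068 and 36455 CPM in fl/fl mice and 46378, 40145, 34706, 32290.5 and 38721 CPM in ΔHep mice. The groups overlapped, and the ΔHep mean was 96.4% of the fl/fl mean, a log2 ratio of -0.05. In HFCFD8W+T10D the sum was 10976, 11831, 10947, 13670.0 and 5178 CPM in fl/fl mice and 899, 725, 1103, 1546 and 1554 CPM in ΔHep,ERT2 mice. These groups did not overlap, and 11.1% of the fl/fl mean was left (log2 ratio -3.17). In HFCFD12W+T10W it was 8967, 6662, 4509.8, 14779 and 1974 CPM in fl/fl mice and 1006, 1281, 2879, 2023 and 1004 CPM in ΔHep,ERT2 mice. Here 22.2% was left (log2 ratio -2.17), and the groups overlapped because fl/fl mouse 5 lay below 2 of the ΔHep,ERT2 mice. No test was made on the sum, and in bulk liver RNA fewer cells that express these genes and less RNA per cell cannot be told apart. Over all 49 Mup rows the CPM left in knockout livers was 90.7%, 7.31% and 14.9% of the fl/fl mean in the 3 experiments in turn, and by this wider sum HFCFD12W+T10W had no overlap (log2 ratio -2.74). As a share of all assigned reads, all Mup rows together took 3.08% to 5.61% in fl/fl and 3.27% to 5.17% in ΔHep mice of HFCFD2W. In HFCFD8W+T10D these shares were 1.02% to 2.01% in fl/fl and 0.0937% to 0.192% in ΔHep,ERT2 mice. In HFCFD12W+T10W they were 0.409% to 2.14% and 0.132% to 0.411%.

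**Figure D1:**
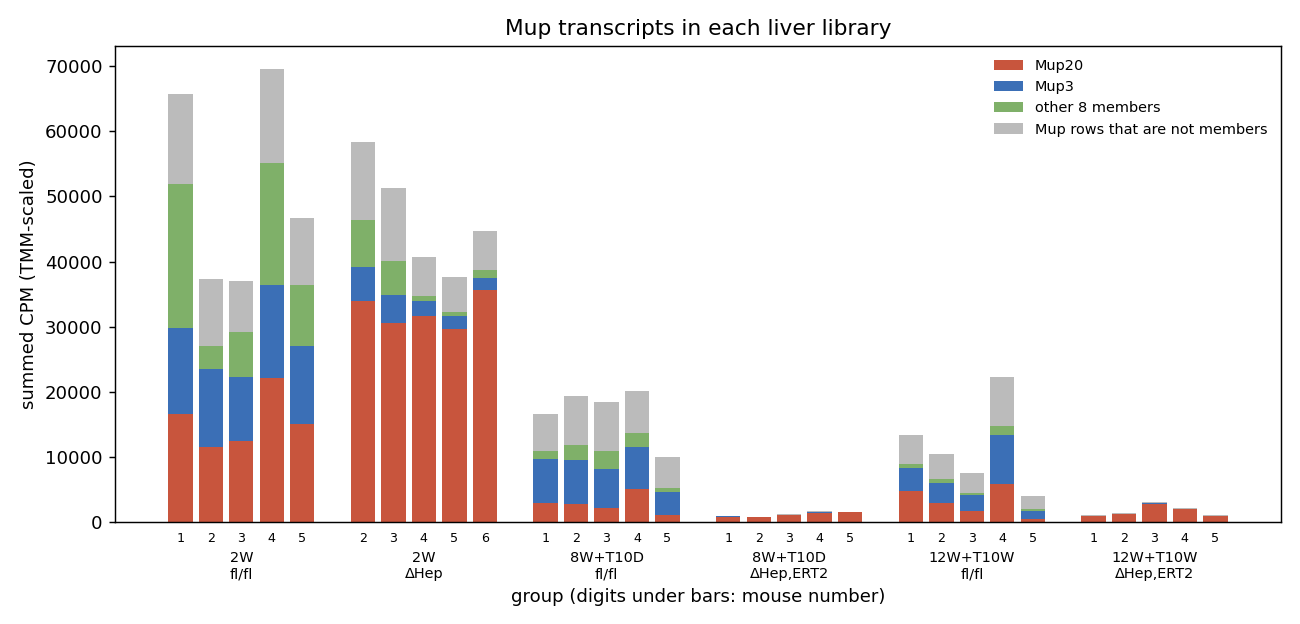
Summed Mup CPM (linear axis) in each of the 30 mice, 1 bar per mouse, split into *Mup20*, *Mup3*, the remaining members and Mup rows that are not members. *Mup20* fills most of each HFCFD2W ΔHep bar (29672 to 35688 CPM) and 83.8% to 97.7% of each ΔHep,ERT2 bar.

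In HFCFD2W the even sum held opposite changes. *Mup20* rose in ΔHep livers, *Mup3* and *Mup17* fell, and the other 7 members did not pass the call, for which a gene had to change more than 2-fold with an adjusted p below 0.05. *Mup20* was 16565, 11574, 12424, 22191 and 15099 CPM in fl/fl mice and 33921, 30576, 31629, 29672 and 35688 CPM in ΔHep mice. Every ΔHep mouse was above every fl/fl mouse, and the mean was 2.07-fold higher (log2 fold change 1.06, SE 0.15, edgeR adjusted p = 0.00058). The fold stands close to the threshold. Without fl/fl mouse 2 or mouse 3 it came to 0.97 or 0.99 on the log2 scale, short of the call at edgeR adjusted p = 0.0014 and 0.0020, and in 1 edgeR fit of all 30 libraries the adjusted p was 0.095 (range over all alternatives 1.3e-10 to 0.095). *Mup3* was 13245, 11880.1, 9845, 14167 and 11861 CPM in fl/fl mice and 5252, 4265, 2261, 1935 and 1806 CPM in ΔHep mice. The groups were apart, and ΔHep mice kept 25.4% of the fl/fl level (log2 fold change -1.97, SE 0.28, edgeR adjusted p = 0.00042). *Mup21* was also apart, at 339, 339.9, 315, 603 and 335 CPM against 287, 255, 274, 198 and 248 CPM, but its log2 fold change of -0.61 (edgeR adjusted p = 0.024) was under 2-fold.

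The 7 alike members varied several-fold from mouse to mouse in HFCFD2W. Their sum, a grouping chosen after the values were seen, was 21681, 3242, 6536, 18107 and 9159 CPM in fl/fl mice and 6918, 5049.8, 543, 485 and 978 CPM in ΔHep mice 2, 3, 4, 5 and 6. ΔHep mice 2 and 3 stood within the fl/fl range and the other 3 ΔHep mice below it. *Cebpa* was lowest in ΔHep mice 2 and 3, and a relation between it and these levels was not tested. *Mup7* was at 16409.8, 1577, 3759.6, 13064 and 4734 CPM in fl/fl mice and 1867, 756, 11.2, 14.7 and 29.9 CPM in ΔHep mice. The fl/fl mouse with the least *Mup7* lay below the ΔHep mouse with the most, and the log2 fold change of -3.88 (SE 1.28) missed the call (edgeR adjusted p = 0.054, range over the alternatives 0.019 to 0.23). *Mup7* and *Mup1* were called without ΔHep mouse 2, which raised the members called lower from 2 to 4. When each mouse was left out the log2 fold change of *Mup7* lay between -5.28 and -3.43. *Mup17* was called (log2 fold change -4.42, SE 0.97, edgeR adjusted p = 0.0083) although its groups overlapped, from 22 to 577 CPM in fl/fl mice and from 0.946 to 31.9 CPM in ΔHep mice. Its edgeR adjusted p ranged from 0.0011 to 0.18 over the alternatives, and the call was lost with the replicate block. The log2 fold change was -3.88 to -5.22 when each mouse was left out, the latter without ΔHep mouse 2. *Mup10* differed least, at 42.3 ± 6.0 CPM (SD, n = 5) against 37.9 ± 5.2 CPM, with an edgeR adjusted p of 0.39.

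Of the 10 members tested in HFCFD2W, 2 were called lower, where the background over all 11068 genes was 1.38%, and 1 was called higher, against 1.69%. Every ΔHep mouse was below every fl/fl mouse for 2 members (background 6.13%) and above for 1 (background 6.33%). The median log2 fold change of the 10 members was -0.74, beside 0.01 over all genes.

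**Figure D2:**
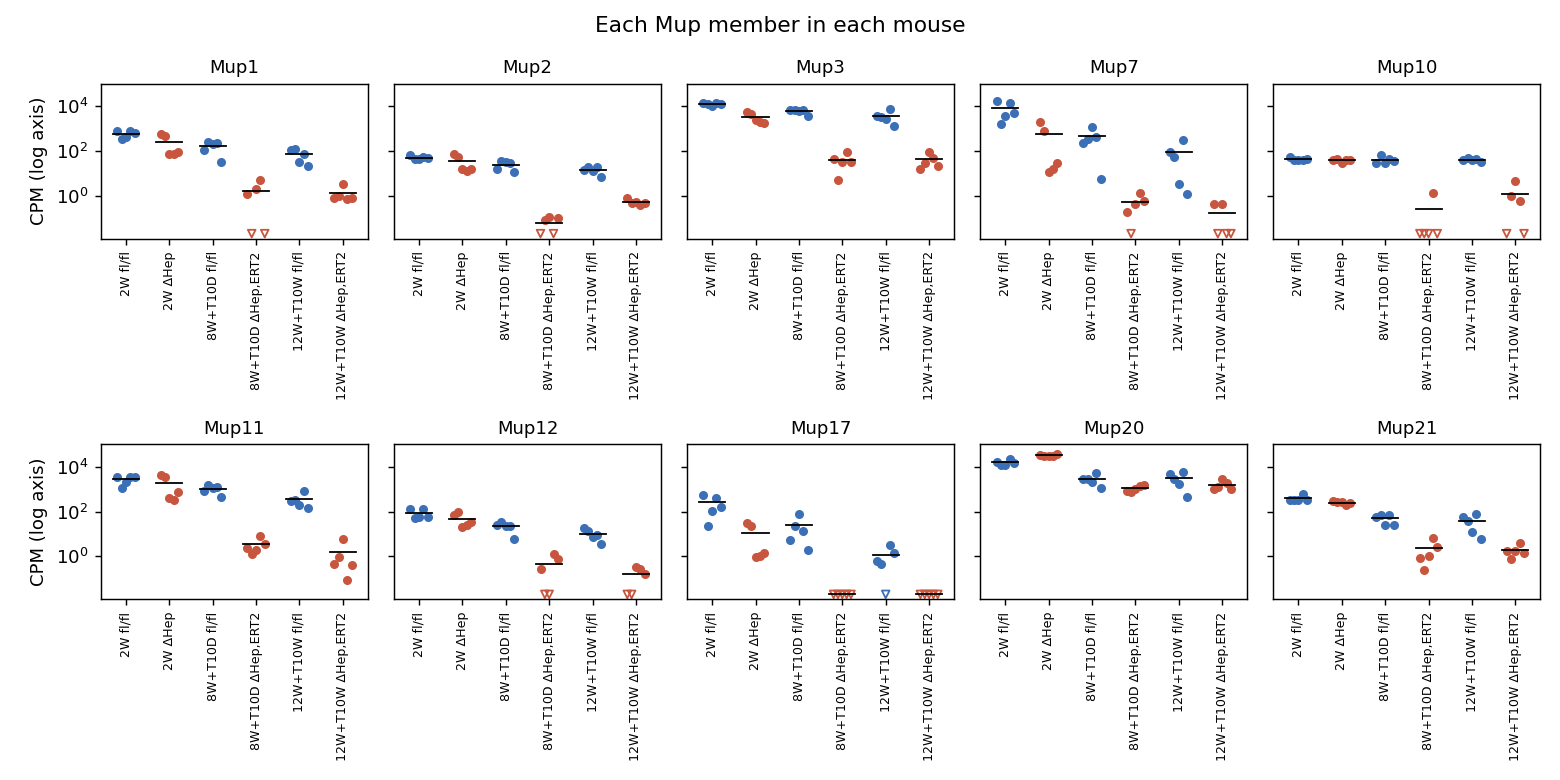
CPM of each member in each mouse on a log axis, blue for fl/fl and red for knockout mice, with the group mean as a line and open triangles at the foot for mice at 0. The red points of HFCFD8W+T10D all lie below the blue ones of that experiment for every member but *Mup20*.

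With tamoxifen for the last 10 days every member moved one way. In HFCFD8W+T10D all 10 members were lower in ΔHep,ERT2 livers by the same call (background 2.01% of 11990 genes), with a median log2 fold change of -7.30 beside 0.01 over all genes. For 9 of 10 every ΔHep,ERT2 mouse was below every fl/fl mouse (background 5.5%), and *Mup20* was the exception. *Mup3* was 6748, 6721, 6051, 6523 and 3448 CPM in fl/fl mice and 41.4, 4.77, 32.2, 91.6 and 32.4 CPM in ΔHep,ERT2 mice. A 146-fold gap separated the means (log2 fold change -7.18, SE 0.64, edgeR adjusted p = 2.5e-05). *Mup20* was 2891, 2795, 2142, 5078 and 1164 CPM in fl/fl mice and 853, 718, 1065, 1431 and 1514 CPM in ΔHep,ERT2 mice. It overlapped through fl/fl mouse 5 and fell 2.52-fold (log2 fold change -1.32, SE 0.33, edgeR adjusted p = 0.017), the smallest change of the 10.

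*Mup21* was 55.6, 68.3, 25.4, 72.3 and 24.5 CPM in fl/fl mice of HFCFD8W+T10D and 0.843, 0.247, 1.08, 6.41 and 2.66 CPM in ΔHep,ERT2 mice, a 21.9-fold lower mean (log2 fold change -4.52, SE 0.56, edgeR adjusted p = 0.00023). Without ΔHep,ERT2 mouse 4 its log2 fold change was -5.35. The sum of the 7 alike members went from 1281, 2247, 2729, 1997 and 541 CPM to 3.93, 1.32, 4.55, 17 and 5.03 CPM, which left 0.362% of the fl/fl mean, or 0.211% without ΔHep,ERT2 mouse 4. Among those 7, *Mup11* was the most abundant per length in fl/fl livers (2368 TPM), and its mean fell from 1042 ± 402 to 3.44 ± 2.73 CPM (SD, n = 5). *Mup17* had no read in any of the 5 ΔHep,ERT2 mice, which makes its mean at least 82.9-fold lower when set against 3 reads per library. Without fl/fl mouse 3, at 80.9 CPM, it was at least 35.9-fold lower. *Mup10* had reads in 1 of the 5 and *Mup2* in 3 of the 5, so that their fitted folds rest on few reads. ΔHep,ERT2 mouse 4 was the highest for 7 of the 9 members that had reads in these mice. Its *Cebpa* level was 12.9 CPM, not the highest of the group, and a relation to the Mup levels was not tested.

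With tamoxifen for the last 10 weeks of a 22-week diet, 8 of 9 members tested were called lower (background 3.47% of 12463 genes) and *Mup20* was not. *Mup17* was too scarce to be tested, at 0.594, 0.453, 0, 3.10 and 1.41 CPM in fl/fl mice and 0 in every ΔHep,ERT2 mouse. The 8 members called were the 8 whose groups did not overlap (background 19.5%), and the median log2 fold change of the 9 tested was -5.65. *Mup3* was 3573, 3083, 2503, 7575 and 1294 CPM in fl/fl mice and 15.4, 29.7, 90.1, 47.9 and 21.3 CPM in ΔHep,ERT2 mice. The least fl/fl mouse was far above the highest ΔHep,ERT2 mouse, and the mean was 88.2-fold lower (log2 fold change -6.42, SE 0.62, edgeR adjusted p = 4.3e-06). *Mup20* was 4762, 2971, 1703, 5873 and 457 CPM in fl/fl mice and 986, 1247, 2772, 1969 and 979 CPM in ΔHep,ERT2 mice. Fl/fl mouse 5 was below all ΔHep,ERT2 mice, and the log2 fold change of -0.94 (SE 0.53) was not called (edgeR adjusted p = 0.15, range over the alternatives 0.016 to 0.36). Without fl/fl mouse 5 it was called, at -1.23 and an edgeR adjusted p of 0.016.

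The remaining members called lower in HFCFD12W+T10W had log2 fold changes from -4.28 (*Mup21*) to -8.84 (*Mup7*). The value of *Mup7* rests on 9.95 expected counts in all over the 5 ΔHep,ERT2 libraries, 3 of which had none, and lay between -9.47 and -7.60 when each mouse was left out, the last without fl/fl mouse 4. Without ΔHep,ERT2 mouse 3 *Mup1*, *Mup10* and *Mup11* moved from -5.65, -5.05 and -7.73 to -6.38, -6.75 and -9.52. The sum of the 7 alike members was 574, 569.5, 292, 1253 and 217 CPM in fl/fl mice and 2.44, 3.23, 15.1, 2.01 and 1.86 CPM in ΔHep,ERT2 mice, leaving 0.849% of the fl/fl mean. Without ΔHep,ERT2 mouse 3 it was 0.411%. Fl/fl mouse 5 was the lowest of its group for 9 members, and ΔHep,ERT2 mouse 3 the highest of its group for 6. In fl/fl mouse 5 other male-biased transcripts were the lowest of the group too, among them *Slco1a1* (an organic anion transporter) at 1.72 CPM beside 59.3 to 605 CPM in the other 4, and *Cyp4a12a* (a fatty acid hydroxylase) at 0.505 CPM beside 10.1 to 100.3 CPM. The female-biased *Cyp2b13*, *Cyp3a41a* and *Cux2* were the highest of the group in that mouse, whereas *Cyp2a4*, *Cyp2b9* and *Ntrk2* were not. In HFCFD8W+T10D fl/fl mouse 5 was also the lowest of its group for 9 members, with *Slco1a1* at 158 CPM beside 441 to 517 CPM in the other 4. The part of these transcripts in the Mup levels was not tested.

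Levels of members were compared with each other as the deposited TPM, which takes out transcript length. In HFCFD2W fl/fl livers *Mup20* led with 20288 ± 4864 TPM (SD, n = 5), followed by *Mup3* at 15968 ± 1373, *Mup7* at 10805 ± 8543 and *Mup11* at 4735 ± 1516 TPM, whereas *Mup2* (80.0 ± 13.2) and *Mup10* (65.0 ± 7.0) were the lowest. The TPM ranges of *Mup20*, *Mup3* and *Mup7* over the 5 mice overlapped. In fl/fl livers of HFCFD8W+T10D and HFCFD12W+T10W *Mup3* came first, at 9011 ± 2029 and 6072 ± 3840 TPM, before *Mup20* at 4319 ± 2391 and 5298 ± 3614 TPM. The TPM ranges of *Mup3* and *Mup20* overlapped in both groups, and in HFCFD12W+T10W fl/fl mouse 1 *Mup20* was above *Mup3* (8014 and 6034 TPM). Of the members' summed TPM, *Mup20* made up 38.3% in HFCFD2W fl/fl livers and 83.2% in ΔHep livers. For HFCFD8W+T10D these shares were 24.4% and 95.9%, and for HFCFD12W+T10W 38.0% and 97.1%. Its lowest share in any knockout mouse was 71.3% (HFCFD2W), and its highest in any fl/fl mouse 51.4% (HFCFD12W+T10W). *Mup3* went the other way, from 31.2% to 7.66%, from 54.5% to 3.24% and from 49.4% to 2.30%.

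**Figure D3:**
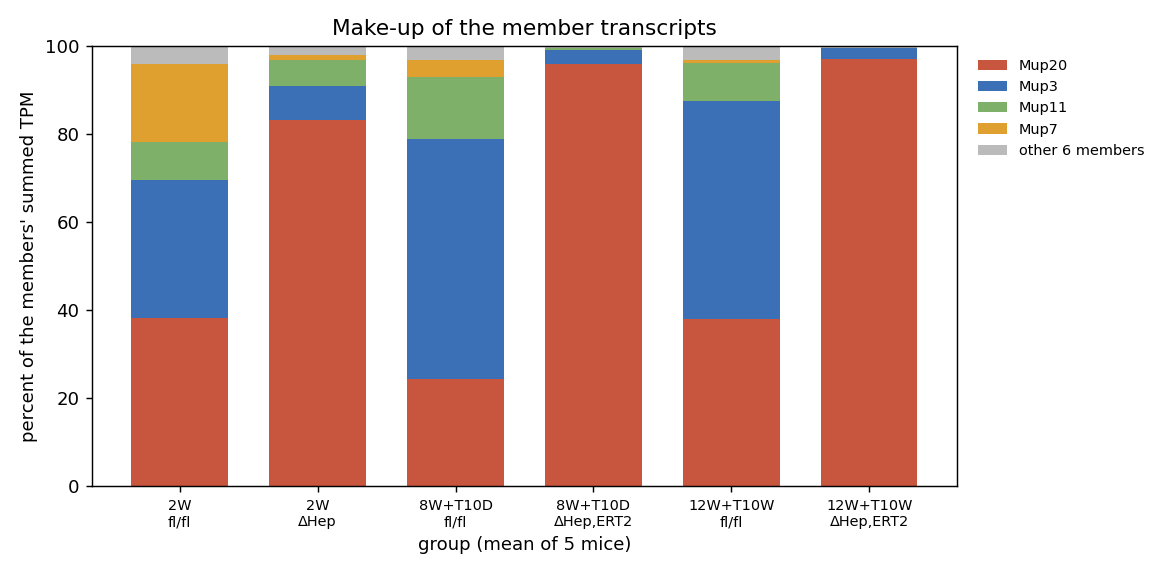
Mean percent of the members' summed TPM (0 to 100) that *Mup20*, *Mup3*, *Mup11* and *Mup7* take in the 6 groups, with the remaining members in grey. These 4 were the most abundant members in HFCFD2W fl/fl livers, though not in every group. *Mup20* takes 24.4% to 38.3% in fl/fl groups and 83.2% to 97.1% in knockout groups.

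All Mup rows other than *Mup20* were also summed, a sum chosen after the values were seen. *Mup20* has more sequence of its own than the 7 alike members, but it shares part of its words with other Mup transcripts, so the split between it and this sum is partly an estimate too. In HFCFD2W it was 49208, 25683, 24588, 47429 and 31550.3 CPM in fl/fl mice and 24378, 20728, 9038, 7924 and 9030.4 CPM in ΔHep mice. The groups were just apart, with 39.8% of the fl/fl mean left. In HFCFD8W+T10D it was 13693, 16550.2, 16329, 15079.9 and 8844 CPM in fl/fl mice and 114, 17, 104, 277 and 86.1 CPM in ΔHep,ERT2 mice, which left 0.849%. In HFCFD12W+T10W it was 8654, 7556, 5765, 16447 and 3548 CPM against 34.5, 75.1, 371, 134 and 59.6 CPM, which left 1.61%, or 0.902% without ΔHep,ERT2 mouse 3. Neither had an overlap.

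Whether the genotype effect differed between experiments was tested as an interaction in 1 edgeR fit of all 30 libraries, at an adjusted p under 0.05. The effect was more negative in HFCFD8W+T10D than in HFCFD2W for 8 of 10 members (background for this direction 6.79% of 12964 genes), with log2 differences from -2.39 for *Mup20* (SE 0.59, edgeR adjusted p = 0.0086) to -7.85 for *Mup2*. It was also more negative in HFCFD12W+T10W than in HFCFD2W for the same 8 (background 17.3%), from -2.04 for *Mup20* (SE 0.59, edgeR adjusted p = 0.0094) to -7.20 for *Mup11*. These 2 tests share the HFCFD2W mice. The value of *Mup2* in the first rests on 4.26 expected counts in all over the 5 HFCFD8W+T10D ΔHep,ERT2 libraries. Without ΔHep,ERT2 mouse 4 of HFCFD8W+T10D the first difference was -11.36 for *Mup10*, which had reads in no other mouse of that group, against -7.28 with it, so this fitted size rests on few reads. *Mup7* and *Mup17* did not pass in either, with edgeR adjusted p = 0.058 and 0.38 in the first and 0.11 and 0.81 in the second. *Mup17* had no read in either ΔHep,ERT2 group, so the size of its fall there is only a lower limit and these tests cannot decide on it. *Mup7* passed the first in 6 of 30 fits that left out 1 mouse, with adjusted p from 0.038 to 0.049 there. Between the 2 inducible experiments 0 of the 9 members with reads in both knockout groups differed, by edgeR at adjusted p under 0.05 (background 10.5%), and 2 of them, *Mup2* and *Mup10*, had an unadjusted p under 0.05. *Mup10* passed (log2 difference 6.42, edgeR adjusted p = 0.039) without HFCFD8W+T10D ΔHep,ERT2 mouse 4. *Mup17* could not be compared there, since both knockout groups were at 0. Cre line, time since deletion, diet time and tamoxifen change together between HFCFD2W and the other experiments and cannot be told apart. Age, which the labels do not give, may differ as well.

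**Figure D4:**
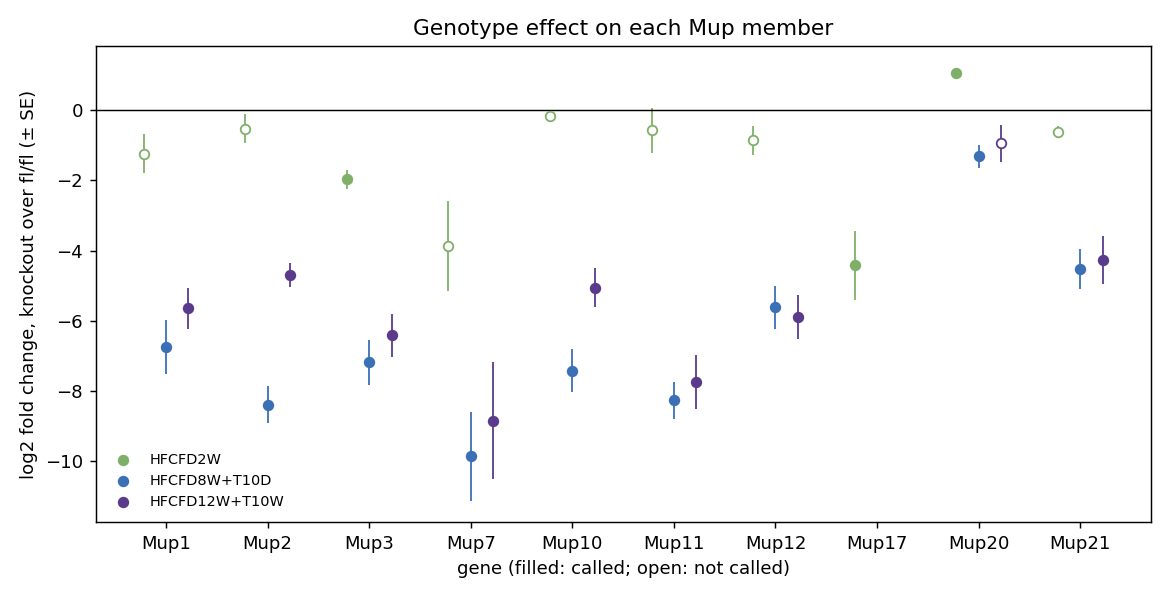
Log2 fold change of each member, knockout over fl/fl, with its standard error from edgeR in the 3 experiments (filled points called, open points not called). Only *Mup20* in HFCFD2W lies above 0, and *Mup17* is drawn for HFCFD2W alone because it had no read in the other knockout groups.

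The fl/fl livers themselves differed between experiments. From HFCFD2W to HFCFD8W+T10D, 7 of 10 members were lower by the same call (background 2.59%) with log2 differences from -1.03 (*Mup2*) to -4.16 (*Mup7*). *Mup20* fell by 2.47 (SE 0.44, edgeR adjusted p = 4.7e-05), *Mup21* by 2.97 (SE 0.48, edgeR adjusted p = 1.3e-05) and *Mup7* by 4.16 (SE 1.24, edgeR adjusted p = 0.0078). *Mup3* (log2 difference -1.05, edgeR adjusted p = 0.082) and *Mup11* (-1.43, 0.065) did not pass. The count ran from 6 to 8 over 30 fits that left out 1 mouse, since *Mup2* lost its call in 6 of them while *Mup3* gained one in 1 and *Mup11* in 3. Without HFCFD8W+T10D fl/fl mouse 3 the difference of *Mup7* was -4.95. *Mup10* stood at 42.3, 40.2 and 40.3 CPM in the fl/fl groups of the 3 experiments in turn. From HFCFD8W+T10D to HFCFD12W+T10W only *Mup17* was lower (log2 difference -4.44, edgeR adjusted p = 0.027, background 1.87%), and that call was lost without HFCFD8W+T10D fl/fl mouse 3 or any of HFCFD12W+T10W fl/fl mice 1, 2 and 3. *Mup11* (-2.11, edgeR adjusted p = 0.039) passed without HFCFD12W+T10W fl/fl mouse 4 and *Mup12* (-1.36, 0.045) without HFCFD8W+T10D fl/fl mouse 5. The groups were separate experiments, so diet time, tamoxifen and experiment cannot be told apart. Nor can age, which the labels do not give.

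Ordered by mean CPM over the 6 groups, the member sum was highest in HFCFD2W fl/fl livers, then HFCFD2W ΔHep, HFCFD8W+T10D fl/fl, HFCFD12W+T10W fl/fl, HFCFD12W+T10W ΔHep,ERT2 and HFCFD8W+T10D ΔHep,ERT2. Only the step from HFCFD2W ΔHep to HFCFD8W+T10D fl/fl had no overlap between neighbours. For *Mup20* HFCFD2W ΔHep came first and HFCFD2W fl/fl second, each apart from the next, and the 4 lower groups overlapped their neighbours. For *Mup3* HFCFD2W fl/fl was apart at the top, the fl/fl groups of the other experiments and HFCFD2W ΔHep followed with overlap, and both ΔHep,ERT2 groups were apart at the bottom, overlapping each other.

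*Mup22*, of whose 100-base words none is its own and *Mup10* holds 92.4%, was 6118 ± 881 CPM in HFCFD2W fl/fl livers and 4424 ± 1157 CPM in ΔHep livers (SD, n = 5, log2 fold change -0.47, edgeR adjusted p = 0.070), with log2 fold changes of -6.68 and -5.74 in the inducible experiments. *Mup14* did not differ by the call in HFCFD2W (log2 fold change -0.02) and had -4.99 and -4.78 in the inducible experiments, and *Mup18* had -0.31, -6.26 and -5.14. Single ΔHep,ERT2 mice weighed on these values. Without HFCFD12W+T10W mouse 3 the log2 fold changes of *Mup22*, *Mup14* and *Mup18* were -6.88, -6.02 and -6.08, and without HFCFD8W+T10D mouse 4 that of *Mup14* was -5.80. *Mup19* was lower in all 3, with log2 fold changes of -5.86, -7.39 and -8.02 (edgeR adjusted p = 4.5e-05, 0.00018 and 0.00017), with no overlap in any. Its inducible values were -8.29 without HFCFD8W+T10D mouse 4 and -9.30 without HFCFD12W+T10W mouse 2, both ΔHep,ERT2. *Mup16* and *Mup9* were also called lower in each experiment, though in HFCFD2W the call was lost in 8 and 2 of 10 fits that left out 1 mouse. *Mup15*, at 647 ± 731 CPM in HFCFD2W fl/fl livers, was not called there (edgeR adjusted p = 0.075, or 0.038 without ΔHep mouse 2) and was not tested later. The pseudogene *Mup-ps19* was called higher in HFCFD2W (log2 fold change 1.02, edgeR adjusted p = 0.013), a call lost in 4 of 10 such fits. It had -1.33 and -1.05 in the others, which were called only without fl/fl mouse 5 of each (edgeR adjusted p = 0.036 and 0.031). *Mup8* and *Mup13*, each at 1 CPM or more in at least 1 group, were tested only in HFCFD2W, where neither was called, except *Mup13* without ΔHep mouse 2 (edgeR adjusted p = 0.031).

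Of 21 genes known to act on Mup transcription or on the growth hormone signal, 1 was lower and 2 higher in HFCFD2W, 2 lower and 1 higher in HFCFD8W+T10D, and 4 lower and 0 higher in HFCFD12W+T10W. In HFCFD2W 20 of the 21 were tested. By edgeR adjusted p alone, whatever the fold, the lower ones numbered 2, 7 and 15 in the 3 experiments in turn, where the background over all genes was 8.09%, 6.85% and 23.8%. The higher ones numbered 2, 1 and 1, beside 8.6%, 10.3% and 27.4%. Over all genes tested, 1.38%, 2.01% and 3.47% were called lower in the 3 experiments in turn, and 1.69%, 4.09% and 14.3% higher. Median log2 fold changes over the list were -0.16, -0.31 and -0.55. In HFCFD2W the prolactin receptor *Prlr* fell by 3.42 on the log2 scale (51.9 to 4.82 CPM, edgeR adjusted p = 7.1e-06), while *Socs2*, a STAT5 target that damps growth hormone signalling, rose by 1.77 (3.43 to 11.6 CPM, edgeR adjusted p = 0.0031) and *Cebpb*, a relative of *Cebpa*, by 1.11 (22.1 to 47.7 CPM, edgeR adjusted p = 0.00039), a fold just short of the call without fl/fl mouse 2 (0.99). In HFCFD8W+T10D the hepatocyte factor *Onecut1* fell by 1.31 (edgeR adjusted p = 0.045), a call lost in 7 of 10 edgeR fits that left out 1 mouse (adjusted p up to 0.098). *Socs2* was called lower there without ΔHep,ERT2 mouse 5 (-1.49, edgeR adjusted p = 0.037), and the female-biased repressor *Cux2* rose by 2.59 from 0.753 to 4.50 CPM. In HFCFD12W+T10W *Prlr* (-1.99), *Cux2* (-1.85) and *Igfals*, which carries IGF1 in blood (-1.33), were among those lower. The *Cux2* groups overlapped there, at 0.238 to 8.28 CPM in fl/fl and 0.422 to 2.09 CPM in ΔHep,ERT2 mice, and its call was lost in 7 of 10 such fits (adjusted p up to 0.12). *Ghr*, under 2-fold in each experiment, had log2 fold changes of -0.17, -0.66 and -0.89, with edgeR adjusted p = 0.12, 0.025 and 1.2e-05. *Stat5b* had -0.14, -0.17 and -0.48, with edgeR adjusted p = 0.31, 0.27 and 0.0082. By adjusted p alone *Ghr* was thus lower in both inducible experiments and *Stat5b* in HFCFD12W+T10W. Both genes were named after their values were seen.

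Of male-biased liver genes other than Mups, 13 were tested in HFCFD2W, where 1 was lower and 1 higher. Of 12 in HFCFD8W+T10D 9 were lower, and of 11 in HFCFD12W+T10W 9 were lower. Median log2 fold changes were -0.12, -2.12 and -2.10 in the 3 experiments in turn. The background over all genes was 1.38%, 2.01% and 3.47% called lower, and 1.69%, 4.09% and 14.3% called higher. The serpin *Serpina1e* fell from 5326 ± 2994 to 16.4 ± 5.2 CPM (SD, n = 5) in HFCFD8W+T10D and by 3.18 on the log2 scale in HFCFD12W+T10W. *Elovl3*, a fatty acid elongase, had log2 fold changes of -5.56 and -5.91, while *Ugt2b38* and *Mcm10*, called lower in HFCFD8W+T10D, had -3.37 and -2.86. In HFCFD12W+T10W those of *Cyp4a12a* and *Slco1a1* were -3.67 and -3.40. Leaving out ΔHep,ERT2 mouse 4 moved *Elovl3* to -7.17 and *Ugt2b38* to -3.98 in HFCFD8W+T10D, and without fl/fl mouse 4 of that experiment *Elovl3* was at -4.95. Leaving out fl/fl mouse 4 moved *Slco1a1* to -2.60 in HFCFD12W+T10W. Without ΔHep,ERT2 mouse 3 *Serpina1e* stood at -3.77 in that experiment, and these genes were all still called by edgeR. *Susd4* was the male-biased gene called lower in HFCFD2W, at -2.95, and *Selenbp2* the one called higher, at 1.43. The HFCFD2W counts of male-biased genes reached 2 lower without ΔHep mouse 2 (*Hsd3b5* added) and 3 higher without fl/fl mouse 4 (*Cyp7b1* and *Ugt2b38* added), and *Selenbp2* was called higher in HFCFD12W+T10W without fl/fl mouse 1 (2.38, edgeR adjusted p = 0.0014). Of female-biased genes, 1 of 6 tested was lower in HFCFD2W (background 1.38%). In HFCFD8W+T10D 4 of 11 were lower (background 2.01%) and 2 higher (4.09%). In HFCFD12W+T10W 4 of 12 were lower (background 3.47%) and 1 higher (14.3%). Those lower in HFCFD2W numbered 3 without fl/fl mouse 1. Those higher in HFCFD8W+T10D numbered 0 without ΔHep,ERT2 mouse 1, 2 or 3 and without fl/fl mouse 1 or 3. Without fl/fl mouse 2 of that experiment *Ntrk2* was called higher instead (2.37, edgeR adjusted p = 0.019). *Cyp2a4* was lower in all 3, with log2 fold changes of -6.97 (-7.68 without ΔHep mouse 5), -2.47 and -1.76. In the inducible experiments *Cyp2b9* had -3.93 and -3.03, and *Cyp2b13* -2.34 and -4.98. The last value rests largely on 1 mouse, since *Cyp2b13* was 3.09, 19.6, 46.6, 1.95 and 255 CPM in HFCFD12W+T10W fl/fl mice and 0.422 to 4.10 CPM in ΔHep,ERT2 mice. These groups overlapped, and without fl/fl mouse 5 the log2 fold change was -3.11. Without fl/fl mouse 5 of HFCFD8W+T10D that experiment's value for the gene was -1.67. *Cyp3a41a* was called higher in HFCFD8W+T10D at 3.07, with 0.711 to 3.75 CPM in fl/fl mice and 21.3, 57.3, 15.5, 0.712 and 0.570 CPM in ΔHep,ERT2 mice. Only ΔHep,ERT2 mice 1, 2 and 3 stood above the fl/fl range, and the call was lost in 8 of 10 edgeR fits that left out 1 mouse, with 2.05 and an adjusted p of 0.13 without mouse 2. In HFCFD12W+T10W it was called higher only without fl/fl mouse 5 (3.40, edgeR adjusted p = 0.00069), which made 2 higher. *Ntrk2* rose by 2.22 in that experiment. Members of the *Cyp2a*, *Cyp2b* and *Cyp3a* families also share reads, so their single values are uncertain.

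Of 7 other lipocalins tested in HFCFD2W 0 were called by edgeR (background 1.38% lower and 1.69% higher), while 2 had an unadjusted p under 0.05. Without ΔHep mouse 3, 2 were called lower there, *Lcn2* (-1.79, edgeR adjusted p = 0.021, against -0.08 with all mice) and *Orm1* (-3.61, 0.015, against -1.89). Of 9 in HFCFD8W+T10D 1 was lower (background 2.01%) and 1 higher (4.09%). Without ΔHep,ERT2 mouse 1 this became 3 lower and 0 higher, with *Orm1* (-2.93, edgeR adjusted p = 0.0056) and *Orm3* (-3.03, 0.0025) added, and *Orm2* was called higher without mouse 4 or mouse 5 of that group. Of 9 in HFCFD12W+T10W 3 were lower (background 3.47%), 2 to 4 when each mouse was left out. Without fl/fl mouse 5 *Lcn2* was called higher there (1.47, edgeR adjusted p = 0.00098). *Ptgds*, a prostaglandin D synthase, was called lower in both inducible experiments, at -3.02 (-3.60 without ΔHep,ERT2 mouse 5) and -2.20 on the log2 scale. Its later groups overlapped, and that call was lost in 6 of 10 edgeR fits that left out 1 mouse, with -1.09 and an adjusted p of 0.24 without fl/fl mouse 5 but -3.02 without ΔHep,ERT2 mouse 3. *Lcn2*, an iron-siderophore binder of the acute phase, was called higher in HFCFD8W+T10D at 2.20 (edgeR adjusted p = 0.045), with 57.8 to 94.6 CPM in fl/fl mice and 1044, 238, 277, 38.7 and 53.9 CPM in ΔHep,ERT2 mice. Mice 4 and 5 lay below every fl/fl mouse, and the call was lost in 8 of 10 such fits, with 1.07 and an adjusted p of 0.16 without ΔHep,ERT2 mouse 1. The acute-phase orosomucoids *Orm1* and *Orm3* stood at -3.13 and -4.53 in HFCFD12W+T10W, the latter at -3.69 without fl/fl mouse 5.

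Hepatocyte markers were high in every library, and some fell beside the Mups. The summed level of 10 hepatocyte markers was 138718 to 169991 CPM in HFCFD2W fl/fl and 141170 to 190202 CPM in ΔHep livers, and 132469 to 162651 against 93943 to 150104 CPM in HFCFD8W+T10D. The HFCFD12W+T10W ranges were 113971 to 142875 and 79618 to 86588 CPM. Of the 10 markers 0, 1 and 2 were called lower by edgeR in the 3 experiments in turn, beside 1.38%, 2.01% and 3.47% of all genes. The edgeR unadjusted p was under 0.05 for 3, 5 and 5 of them. *Alb*, albumin, had log2 fold changes of 0.26, -0.94 and -1.10, and without HFCFD8W+T10D ΔHep,ERT2 mouse 4 it was called there too (-1.17, edgeR adjusted p = 0.0044). Summed stellate-cell markers (8 genes) were 356 to 636 against 585 to 1170 CPM in HFCFD8W+T10D and 313 to 400.5 against 1218 to 1530.3 CPM in HFCFD12W+T10W. Cholangiocyte markers (6 genes) were 3.56 to 12.8 against 9.59 to 13.96 CPM in HFCFD8W+T10D and 3.22 to 5.28 against 35.5 to 61.7 CPM in HFCFD12W+T10W. Of the 6, 1 was at 0 in every HFCFD8W+T10D fl/fl library, and none was at 0 throughout either HFCFD12W+T10W group. Macrophage markers (9 genes) were 626 to 1150.1 against 1020.4 to 1897.5 CPM in HFCFD8W+T10D, with 276 to 743 against 748 to 979 CPM in HFCFD12W+T10W, and lymphocyte markers (6 genes) 16.4 to 21.1 against 24.1 to 66.5 CPM in the former and 11.4 to 22.1 against 33.4 to 49.3 CPM in the latter. In HFCFD2W all 4 of these sums overlapped between genotypes, at 158 to 314 against 158 to 345 CPM (stellate cell), 2.55 to 5.05 against 3.49 to 8.56 (cholangiocyte), 232 to 314 against 266 to 411 (macrophage) and 5.34 to 8.66 against 6.49 to 9.71 (lymphocyte). Endothelial markers (6 genes) ranged from 127 to 226 CPM over all 30 libraries. Their part in the Mup changes was not tested.

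Genes at the edges of the cluster did not pass the call. Of the 5 protein-coding genes on each side in the RefSeq table (*Hsdl2*, *E130308A19Rik*, *Inip*, *Snx30* and *Slc46a2* below, *Zfp37*, *Slc31a2*, *Fkbp15*, *Slc31a1* and *Cdc26* above), 8 were abundant enough to be tested and 0 were called by edgeR in any experiment, while 0, 2 and 5 had an unadjusted p under 0.05 in the 3 experiments in turn. Their log2 fold changes lay between -0.20 and 0.09, between -0.57 and 0.34 and between -0.71 and 0.65 in the same order. The background over all genes was 1.38%, 2.01% and 3.47% called lower, and 1.69%, 4.09% and 14.3% called higher. With 8 genes tested, 0 calls therefore do not set these neighbours apart from other genes. By adjusted p alone *E130308A19Rik* was lower in HFCFD8W+T10D, while at the later time *Hsdl2* and *Slc31a1* were lower and *Inip* and *Slc31a2* higher.

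Among 12085 genes with no Mup symbol and a mean of at least 1 CPM, the 5 whose centred log2 profile over the 30 libraries lay nearest to that of the member sum were *Nudt7*, *Ugt2b1*, *Ces3b*, *Ces4a* and *Slc22a28*, with root mean square differences of 0.70, 0.76, 0.77, 0.79 and 0.89 (median over the genes compared 2.09). *Nudt7*, a peroxisomal coenzyme A hydrolase, went from 874 CPM in HFCFD2W fl/fl and 958 CPM in ΔHep livers to 235 and 67.7 CPM in HFCFD8W+T10D and 281 and 76.9 CPM in HFCFD12W+T10W. *Ugt2b1*, a glucuronosyltransferase, read 1546 and 1484 CPM, 782 and 101.3 CPM, and 473 and 41.6 CPM in the same order. The nearness is a description of these 30 libraries, which share experiments and groups.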

How the data were processed

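Liver poly(A) RNA of 30 mice was sequenced from stranded libraries. Per the submitters' processing notes, Trimmomatic 0.36, STAR 2.5.1, Picard 1.84 and RSEM 1.2.22 were used with mm10. The authors deposited expected counts (not normalized) and TPM per library; their further tables of normalized values were not used. Expected counts were rounded, and with R 4.3.3 and edgeR 4.0.16 genotypes were compared within each experiment (filterByExpr, TMM, quasi-likelihood F test, Benjamini-Hochberg adjustment over all genes tested), called at adjusted p under 0.05 and fold over 2. Interactions and fl/fl comparisons came from 1 fit of all 30 libraries. The sums of CPM had no test. Replicates are separate mice, and library pairs within groups all differed beyond sampling noise. Coding sequences were aligned with MAFFT 7.526. The test was tried on simulated data.

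Named are all 10 members, their sum, *Cebpa*, other Mup rows at a mean of at least 1 CPM in a group, the 4 called genes of each list with the largest change per experiment, the 5 neighbours on each side, and the 5 genes nearest the sum. The values of 1 gene that this rule names are not reported here. Members and lists were chosen with earlier results of these data known. Alternatives were DESeq2 1.42.0, no filter, upper-quartile scaling, TMM without Mup rows, a joint fit, a replicate block and leaving out each mouse. RSEM's split of shared reads, and TPM scaling to a fixed total, bear on every single-member value.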

Additional observations from a re-analysis of the deposited data

Results flagged for a closer look

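Single mice stood far from the rest of their group of 5 in 8 of 64 sets of member values (gap to the nearest mouse over the range above 0.71). Chance gives about 1 in 20 for independent sets, a rough guide only, since the sets share mice and reads and 3 of the 8 are 1 mouse. In fl/fl mice these were *Mup21* in HFCFD2W mouse 4 (603 CPM, the others 315 to 339.9), *Mup3* in HFCFD8W+T10D mouse 5 (3448 CPM, the others 6051 to 6748), *Mup17* in HFCFD8W+T10D mouse 3 (80.9 CPM, the others 1.97 to 22.4) and *Mup11* in HFCFD12W+T10W mouse 4 (814 CPM, the others 152 to 319.6). In ΔHep,ERT2 mice they were *Mup10* in HFCFD8W+T10D mouse 4 (1.30 CPM, the others at 0, so that any read sets it apart) and, in HFCFD12W+T10W mouse 3, *Mup1* (3.46 CPM, the others 0.730 to 0.924), *Mup10* (4.31 CPM, the others 0 to 0.924) and *Mup11* (6.08 CPM, the others 0.0912 to 0.924).

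The genotype effect differed between experiments for 8 members by the edgeR interaction test. HFCFD8W+T10D less HFCFD2W gave log2 differences of -5.53 (*Mup1*), -7.85 (*Mup2*), -5.22 (*Mup3*), -7.28 (*Mup10*), -7.70 (*Mup11*), -4.77 (*Mup12*), -2.39 (*Mup20*) and -3.92 (*Mup21*), with edgeR adjusted p from 7.7e-07 to 0.0086. HFCFD12W+T10W less HFCFD2W gave -4.45 (*Mup1*), -4.19 (*Mup2*), -4.49 (*Mup3*), -4.94 (*Mup10*), -7.20 (*Mup11*), -5.05 (*Mup12*), -2.04 (*Mup20*) and -3.71 (*Mup21*), with edgeR adjusted p from 1.0e-06 to 0.0094. The size for *Mup2* in HFCFD8W+T10D less HFCFD2W rests on few reads. Single ΔHep,ERT2 mice weighed on several of these sizes. Without HFCFD8W+T10D mouse 4 the first difference was -6.53 (*Mup1*), -11.36 (*Mup10*), -5.49 (*Mup12*) and -4.75 (*Mup21*). Without HFCFD12W+T10W mouse 3 the second was -5.16 (*Mup1*), -6.60 (*Mup10*) and -8.95 (*Mup11*), and without fl/fl mouse 4 it was -6.60 for *Mup11*.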

How the results depend on the processing

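All 10 members stayed called lower in HFCFD8W+T10D and 8 or 9 in HFCFD12W+T10W under each alternative run. In HFCFD2W the members called lower went to 1 with the replicate block, where *Mup17* was lost, and ranged from 2 to 4 when each mouse was left out. The member called higher there, *Mup20*, was 0 in the joint fit, and 0 to 1 when each mouse was left out. Same-numbered mice had weak correlations of their deviations (-0.231 to 0.184 over 14 pairs). Differently numbered mice were not compared, so this check cannot decide whether the numbers pair the mice. The replicate block changed no other count. The log2 ratio of the family sum in HFCFD8W+T10D was -3.77 over every Mup row, against -3.17 for the members. With each mouse left out in turn, members whose effect differed between the inducible experiments numbered 0 to 1, and members that differed between fl/fl livers of HFCFD12W+T10W and HFCFD8W+T10D 0 to 2 (6 to 8 between HFCFD8W+T10D and HFCFD2W). No result changed direction except the HFCFD2W family sum, whose log2 ratio lay between -0.17 and 0.09. Depth limits *Mup2*, *Mup7*, *Mup10*, *Mup12* and *Mup17*, which had few or no reads in ΔHep,ERT2 livers. Leaving out each mouse for the wider sums, the *Mup17* bound, the other Mup rows and the genes of the other lists was chosen after seeing the data.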
